A study of Mus musculus with 33 samples.

Results

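Kidneys taken 1 week after adenoviral delivery of interferon alpha (Adv-IFNα) were compared with untreated kidneys, to describe the first response of this organ in the time course. The comparison used 8 of the 33 arrays of the series, the 5 whose time point is labelled week 1 and the 3 labelled untreated. Each array held total kidney RNA, and the numbered arrays of a group are taken as separate mice. Mice of both groups were the F1 hybrid of the NZB and NZW strains (BWF1), which develops lupus nephritis spontaneously, and the labels name no engineered allele. The week 1 mice had received ADV_IFNa, an adenovirus vector carrying a mouse IFNα gene, which the study's methods say was injected intravenously into females, whereas the untreated mice had received nothing. No group received an empty vector, so IFNα and the adenovirus itself cannot be told apart. The labels give no ages and no week of collection for the untreated mice. The study's text calls its controls age-matched but does not say that they match the week 1 mice. Age therefore cannot be told apart from treatment either. In whole-kidney RNA, fewer cells of a type and less RNA per cell cannot be told apart. The array was the Affymetrix HT MG-430 PM, and each level below is a log2 value of the brightest probe set of a gene, so that a difference of 1 is a 2-fold change. Changes are week 1 minus untreated on this scale, with the SE after ± unless SD is written.

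Type I interferons bind the receptor chains IFNAR1 and IFNAR2, which activate the kinases JAK1 and TYK2. STAT2 then acts in the nucleus in a complex with IRF9 that binds the interferon-stimulated response element in promoters of antiviral, antigen-presenting and regulatory genes. In lupus nephritis these genes are often active in glomeruli and tubules, and IFNα given to lupus-prone mice accelerates the disease.

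Promoters were searched because the response turns on genes that this element is known to control. The element was taken as GAAANNGAAA, read on both strands, in the RefSeq window (GRCm38.p6) of 300 bases that runs from 250 bases before to 50 bases after each annotated start. Of the 126 genes that rose by more than 2-fold at week 1, 92 had a window, and 36 of these (39.1%) held a match, against 488 of the 13605 measured genes with a window (3.59%). The motif TTCNNNGAA, the form bound by STAT dimers, stood in 19 of the 92 (20.7%) and in 1192 of the 13605 (8.76%), and overlapping matches of both motifs stood in 2 of the 111 windows of the 92 genes and in 24 of all 32851 windows searched. Among the GTPases listed further on, 7 of 8 genes with a window held GAAANNGAAA (87.5%), and among antiviral effectors 13 of 29 (44.8%). Of the rising genes that stood in none of the gene lists used here, 6 of 26 held it (23.1%). A match describes letters in a window and not a bound site. 5 windows are shown in part, those of Ifit1 and Oas3, which encode an RNA-binding antiviral protein and an oligoadenylate synthetase, and those of Phf11a, Mitd1 and Clca3a2, which come from outside the lists. Capitals mark the match, which in Ifit1 occurs in 2 copies on the other strand, and the first match begins 104 bases before the start in Ifit1, 75 in Oas3, 29 in Phf11a, 237 in Mitd1 and 110 in Clca3a2.
Ifit1, chr19:34640745-34640853, plus strand: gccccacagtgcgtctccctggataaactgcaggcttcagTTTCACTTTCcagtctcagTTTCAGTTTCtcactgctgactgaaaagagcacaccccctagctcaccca
Oas3, chr5:120777685-120777774, minus strand: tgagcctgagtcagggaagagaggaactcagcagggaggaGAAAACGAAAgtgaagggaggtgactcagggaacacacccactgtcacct
Phf11a, chr14:59297502-59297591, minus strand: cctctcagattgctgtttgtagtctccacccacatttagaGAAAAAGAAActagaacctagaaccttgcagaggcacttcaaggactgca
Mitd1, chr1:37890599-37890661, minus strand: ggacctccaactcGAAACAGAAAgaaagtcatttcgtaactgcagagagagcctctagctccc
Clca3a2, chr3:144819555-144819644, minus strand: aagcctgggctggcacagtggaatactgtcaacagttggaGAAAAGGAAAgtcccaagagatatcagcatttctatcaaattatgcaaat

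The 8 arrays correlated pairwise at r = 0.980 to 0.993 over all probe sets, and kidney transcripts were measured on each. Kap, an androgen-regulated proximal tubule transcript, averaged 12.45 ± 0.08 at week 1 and 12.27 ± 0.10 in untreated kidneys (SD, n = 5 and 3), and Podxl, a podocyte sialoglycoprotein, 10.71 ± 0.15 and 10.55 ± 0.13. The 3′ minus 5′ difference of the beta-actin control probe sets, which grows as RNA degrades, was 1.95 ± 0.15 in week 1 arrays and 1.57 ± 0.16 in untreated arrays (exact two-sided permutation p = 0.0357, of 56 arrangements, whose smallest possible p is 0.0179), and 4 of 5 week 1 arrays exceeded every untreated one. The same difference for Gapdh was 1.55 and 1.51 (p = 0.518, exact permutation). The part of RNA quality in the results was not tested beyond a fit with the beta-actin difference as a covariate, in which 137 genes rose and 6 fell in place of the 239 and 54 given next.

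The first kidney response was one of rises. Of 45037 probe sets, 204 rose by more than 2-fold at an adjusted p under 0.05 (0.453%) and 5 fell (0.0111%), and 46 of the 204 had either no gene symbol or several. Counted per gene, 126 of 17097 rose by more than 2-fold (0.737%) and 0 fell by as much, and without a fold threshold 239 rose (1.4%) and 54 fell (0.316%) by limma with Benjamini-Hochberg adjustment. At an unadjusted p under 0.05 the counts were 1246 and 979. Counts of passing list members given below stand beside the 1.4% of all genes that rose and the 0.316% that fell. Of the 126, 58 rose more than 4-fold and 19 more than 8-fold, and their median rise was 1.89. Their median level was 7.31 at week 1 and 5.30 in untreated kidneys. The plot of change against adjusted p shows how one-sided the response was.

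**Figure D1:**
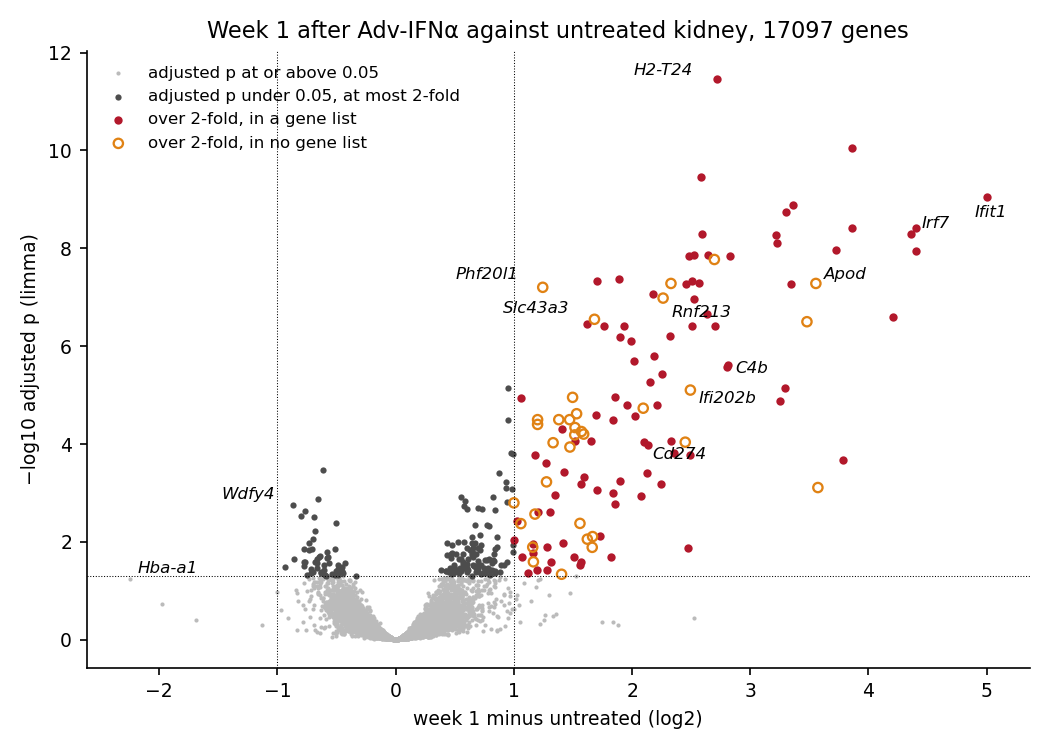
Change of each of 17097 genes (x axis, week 1 minus untreated, log2) against −log10 of its adjusted p (y axis), with dotted lines at 2-fold and at an adjusted p of 0.05. Red points are genes in a list and open orange points genes in no list that rose by more than 2-fold, dark grey points other genes that passed the test and light grey points genes that did not, and no point passes both lines on the falling side.

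In 124 of the 126 genes every week 1 array lay above every untreated array, an arrangement seen in 831 of all 17097 genes (4.86%), while the reverse arrangement was seen in 598 (3.5%). The 126 were selected on the same arrays, which favours this arrangement. The spread differed between groups in these genes. Their median SD was 0.197 over week 1 arrays and 0.411 over untreated arrays, and the untreated SD was the larger in 102 of the 126, against 58.7% of all genes. Untreated replicate 1 was the highest untreated array in 81 of the 126 genes and untreated replicate 3 the lowest in 81. Of the 95 rises over 2-fold whose values were followed through each array left out, 3 moved by more than 1.5 times, namely Ifit1, the GTPase gene Mx1 and the chemokine gene Ccl3. The rise of Ifit1 was 5.00, and leaving out untreated replicate 1 gave 5.72 and leaving out untreated replicate 3 gave 4.36, while that of Mx1 was 3.29, then 3.99 and 2.59 without the same arrays. Ccl3 rose by 1.12, and by 1.72 without untreated replicate 1. The counts of falls also turned on these arrays, with 191 genes without untreated replicate 2, 28 without untreated replicate 1 and 21 without untreated replicate 3, where the full set gave 54. Without week 1 replicates 2, 3 and 5 in turn it was 33, 23 and 29.

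Interferon genes themselves did not pass the test. None of 11 measured members passed, and their changes ran between −0.20 and 0.36. Ifna1, an interferon alpha gene, averaged 4.72 ± 0.06 at week 1 and 4.43 ± 0.84 in untreated kidneys (SD, n = 5 and 3, adjusted p = 0.515), and Ifna9 changed by 0.01 (adjusted p = 0.978). The receptors and kinases that carry the signal also gave 0 of 9 passing, with a median change of −0.03. Ifnar1, the first receptor chain, changed by −0.07 (adjusted p = 0.871), Jak1 by 0.04 (0.94) and Tyk2 by −0.23 (0.627). Ifnar2, the second chain, measured 6.33, 6.03, 5.81, 5.96 and 5.97 at week 1, against 5.51, 5.65 and 4.84 in untreated kidneys. The groups did not overlap, but the difference of 0.68 had an adjusted p of 0.0999.

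A minority of the transcription factors downstream of the receptor passed the test. Of 18 STAT and IRF family genes and their partners 6 rose, 0 fell and 12 did not pass, with a median change of 0.25 over the list and −0.003 over all genes. Irf7, the factor that amplifies interferon alpha production, measured 8.23, 8.64, 8.23, 8.41 and 8.39 at week 1, against 3.95, 4.13 and 3.98 in untreated kidneys. The groups lay far apart, with a 20.6-fold rise (4.36 ± 0.40, adjusted p = 5.21e-09). Stat2 measured 7.53, 7.91, 7.63, 8.01 and 7.95 at week 1, against 5.60, 5.47 and 4.77 in untreated kidneys (2.53 ± 0.27 higher, adjusted p = 1.07e-07). Irf9, the DNA-binding partner of STAT2, averaged 8.02 ± 0.24 at week 1 and 6.32 ± 0.35 in untreated kidneys (SD, n = 5 and 3), and rose by 1.70 ± 0.24 (SE, adjusted p = 2.53e-05). In both genes the lowest week 1 array stood clear of the highest untreated array. The others were Sp100, a nuclear body protein (1.90), and Nmi and Ifi35, a pair of interacting interferon-induced proteins (1.41 and 1.28). Irf1 and Irf8 changed by 0.51 each (adjusted p = 0.48 and 0.32), Stat3 by 0.11 (0.839) and Irf3 by −0.19 (0.58). Members of a list that did not pass and are named here and further on were mostly chosen after their values were seen.

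Feedback and ISG15 genes gave a mixed picture. Usp18, which removes ISG15 from proteins and blocks IFNAR2, was the 1 of 14 feedback inhibitors that rose (3.86, adjusted p = 3.92e-09), while Socs1 and Socs3, which inhibit JAK kinases, changed by −0.39 and −0.40 (adjusted p = 0.28 and 0.65). Of 7 genes of ISG15 conjugation 5 rose, with a median of 1.06. They were Usp18, the E3 ligase genes Herc6 (1.42, adjusted p = 0.0107) and Trim25 (1.06, 1.12e-05), the E2 gene Ube2l6 (1.32, 0.0258) and the E1 gene Uba7 (0.84, 0.00227). Ube2l6 lost its call without untreated replicate 3 (adjusted p = 0.189) and without week 1 replicate 3 (0.071), and Herc6 without untreated replicate 2 (0.0981, change 0.94).

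Antiviral effectors held more rises than any other list. Of 40 measured members 33 rose and 0 fell, with a median change of 2.19, and the mean of the list over its members, set to the untreated mean, lay between 2.03 and 2.17 in the 5 week 1 arrays and at 0.19, 0.06 and −0.26 in the 3 untreated arrays. Lgals3bp, a secreted galectin-3 binding glycoprotein, measured 10.08, 10.33, 10.10, 10.02 and 10.30 at week 1, against 6.56, 6.54 and 5.82 in untreated kidneys. Its rise of 3.86 ± 0.28 (SE, adjusted p = 8.98e-11) was 14.5-fold, with no overlap. Rtp4, a receptor transporter that restrains viral replication, measured 8.16, 8.33, 7.78, 8.15 and 8.17 at week 1, against 4.85, 4.77 and 4.64 in untreated kidneys (3.36 ± 0.29, adjusted p = 1.31e-09). Xaf1, a proapoptotic zinc finger protein, rose by 3.34 (adjusted p = 5.43e-08), Oas1g by 3.30 (1.79e-09) and Ifit3 by 3.23 (7.65e-09). The members that did not pass were 7, among them Epsti1, which changed by 1.05, and Oas1c, by 0.79.

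Guanylate-binding proteins and immunity-related GTPases, which attack vacuoles that hold pathogens, gave 9 rises of 13 measured members, with a median of 2.49. Irgm1, an autophagy-linked regulator of the family, measured 9.05, 9.05, 8.98, 9.28 and 8.84 at week 1, against 6.38, 5.57 and 5.50 in untreated kidneys. Its rise was 3.22 ± 0.29 (SE, adjusted p = 5.45e-09), and untreated replicate 1 stood above the other two untreated arrays. Tgtp1 rose by 3.25 (adjusted p = 1.33e-05), Gbp3 by 2.83 (1.44e-08), Igtp by 2.81 (2.41e-06) and Irgm2 by 2.63 (2.2e-07). Gbp2 changed by 1.30 (adjusted p = 0.12) and Gbp4 by −0.01. Several of these genes have near-identical copies on the same chromosome, and 12 of the 126 rises rest on probe sets that may bind more than 1 transcript, so a value can be shared between copies.

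Other effector families were split between members that rose and members that did not. Of 19 PARP and deltex genes, which add ADP-ribose or ubiquitin to proteins, 7 rose, and the median change was 0.33. Parp9 measured 7.92, 8.41, 8.33, 8.52 and 8.34 at week 1, against 5.74, 5.70 and 5.37 in untreated kidneys (2.70 ± 0.31, adjusted p = 3.79e-07). Its partner Dtx3l rose by 1.85, Parp14 by 1.96, Parp12 by 1.93, Parp11 by 1.59 and Zc3hav1, the RNA-binding zinc finger antiviral protein, by 1.62. Of 24 TRIM family E3 ligase genes 6 rose, with a median of 0.14, and 5 of these lie on chromosome 7: Trim30a (2.52), Trim30d (2.13), Trim21 (1.70), Trim12c (1.42) and Trim34a (1.03). The list did not hold Trim6, a further gene of this family that rose and is described with the genes outside the lists. Of 9 Schlafen genes 1 rose. Slfn4, which is known from myeloid cells, measured 7.36, 7.17, 7.25, 7.07 and 7.17 at week 1, against 4.51, 3.16 and 2.59 in untreated kidneys. The untreated arrays spread widely while the week 1 arrays stood together, and the rise was 3.78 ± 0.61 (SE, adjusted p = 0.000216).

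**Figure D2:**
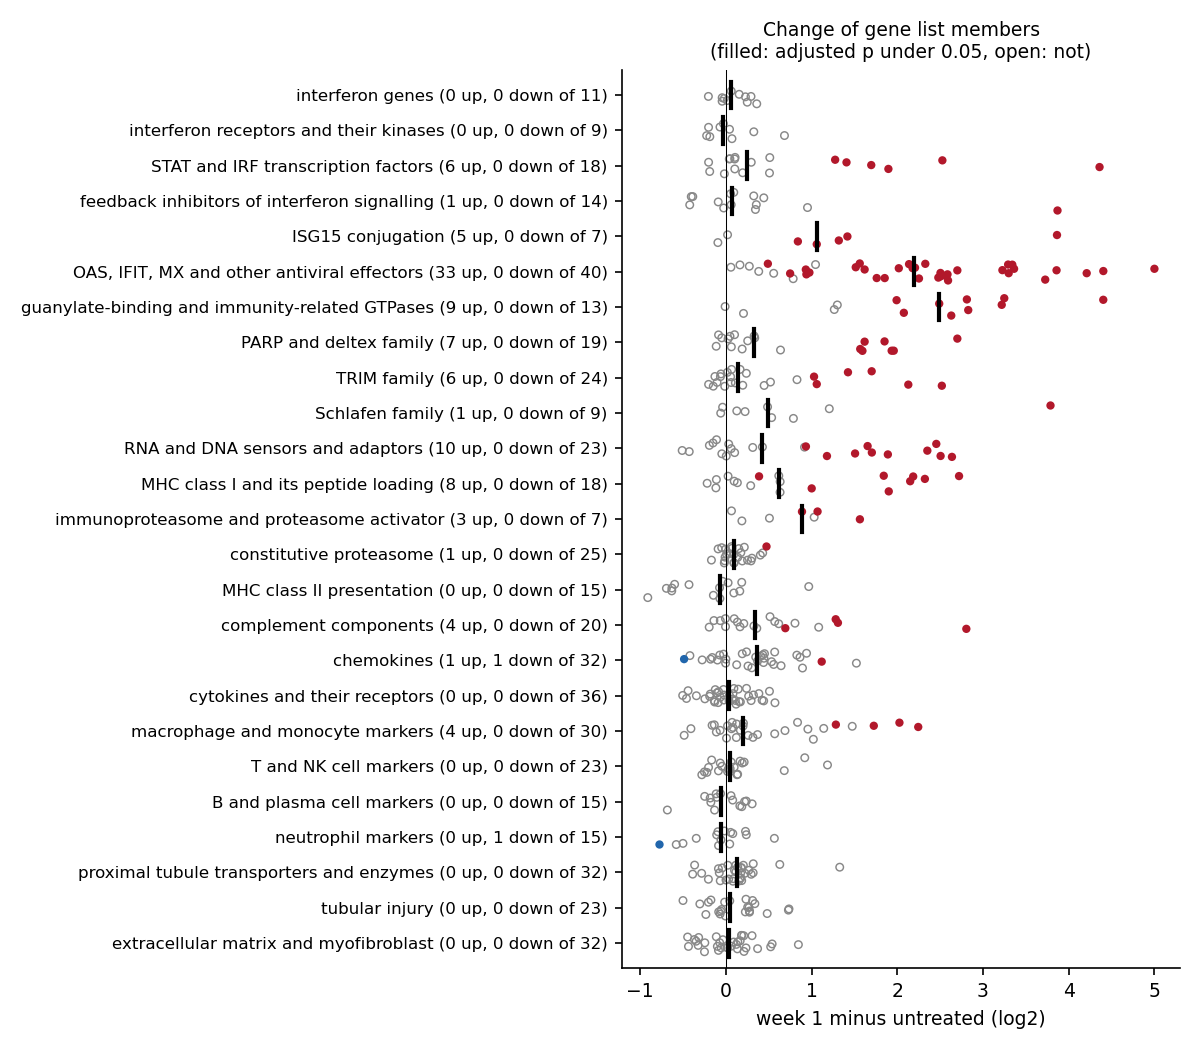
Change of each measured member (x axis, week 1 minus untreated, log2) in 25 gene lists (rows). Filled red points rose and filled blue points fell at an adjusted p under 0.05, open points did not pass, and black bars are list medians, which are highest for guanylate-binding and immunity-related GTPases (2.49) and antiviral effectors (2.19).

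Of 23 measured sensors and adaptors of foreign nucleic acid 10 rose, 0 fell and 13 did not pass, with a median of 0.43. Ifih1, which encodes the double-stranded RNA sensor MDA5, measured 8.40, 8.70, 8.69, 8.53 and 8.80 at week 1, against 6.48, 6.04 and 5.43 in untreated kidneys (2.64 ± 0.25 higher, adjusted p = 1.34e-08). Dhx58 (LGP2) rose by 2.51 (adjusted p = 3.79e-07), Ddx58 (RIG-I) by 1.89 (4.18e-08) and Zbp1, a sensor of Z-form nucleic acid, by 1.70 (0.000881). The DNA-binding p200 family members Ifi213 and Ifi204 rose by 2.46 (5.43e-08) and 2.35 (0.000152). Among DNA sensors Cgas, which makes the messenger that activates STING, changed by 0.03 (adjusted p = 0.95) and the endosomal receptor gene Tlr9 by −0.11 (0.846). Sting1, the adaptor of cytosolic DNA sensing, measured 3.65, 3.74, 3.93, 3.85 and 3.81 at week 1, against 3.81, 4.29 and 3.87 in untreated kidneys. Its groups overlapped, and the change of −0.19 ± 0.22 did not pass (adjusted p = 0.765).

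Of 18 MHC class I and peptide-loading genes 8 rose, 0 fell and 10 did not pass, with a median of 0.62, while no gene of the class II list passed. H2-T24, a nonclassical class I gene, had the smallest adjusted p of all genes (3.43e-12). It measured 9.02, 8.98, 8.84, 8.66 and 9.08 at week 1, against 6.46, 5.92 and 6.21 in untreated kidneys, a rise of 2.72 ± 0.17 (SE). The nonclassical genes H2-T10 and H2-T23, the second encoding Qa-1, rose by 2.32 and 2.19 and the classical gene H2-K1 by 2.15, with 1 of its 4 probe sets at −0.02. The classical gene H2-D1 changed by −0.22 (adjusted p = 0.934) and H2-Q10 by −0.11 (0.857). Nlrc5, the transactivator of class I genes, measured 8.10, 7.71, 7.41, 8.27 and 8.22 at week 1, against 6.78, 5.95 and 5.57 in untreated kidneys (1.84 ± 0.33, adjusted p = 0.000987), so the highest untreated array stayed under the lowest week 1 array. Class I genes are close copies of one another, so their values may be shared.

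The immunoproteasome, which cuts peptides for class I, gave 3 rises of 7 members with a median of 0.89, while the constitutive proteasome gave 1 of 25 with a median of 0.09. Psmb8, an interferon-induced catalytic subunit, measured 8.09, 7.79, 7.56, 8.22 and 7.97 at week 1, against 6.56, 6.17 and 6.36 in untreated kidneys (1.56 ± 0.38, adjusted p = 0.0258). The groups lay well apart, but the call was lost without any 1 of the untreated replicates 1, 2 and 3 (adjusted p = 0.0564, 0.0592 and 0.0952) and without week 1 replicate 4 (0.0533) or 5 (0.0522). Psme1, a subunit of the PA28 activator, rose by 1.07 (0.0202), a call lost without untreated replicate 3 (0.227) and week 1 replicate 5 (0.0514). Cd74, the class II invariant chain, measured 7.95, 7.77, 7.51, 7.90 and 8.08 at week 1, against 8.56, 8.61 and 9.09 in untreated kidneys. Every week 1 array was below every untreated one, yet the change of −0.91 ± 0.44 had an adjusted p of 0.361. Of 15 class II genes 5 showed that arrangement, which 3.5% of all genes did, and 0 passed, with a median change of −0.07.

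Among complement components 4 of 20 rose, with a median of 0.34. C4b, a form of the component C4, measured 7.55, 7.82, 7.83, 8.04 and 7.52 at week 1, against 5.22, 5.09 and 4.52 in untreated kidneys, a 7-fold rise (2.81 ± 0.35, adjusted p = 2.62e-06). C2, which pairs with C4 in the classical convertase, rose by 1.31 (adjusted p = 0.0025), C1ra, a protease of the first component, by 1.28 (0.013) and Cfb, factor B of the alternative pathway, by 0.69 (0.0241). Every untreated array was below every week 1 array in these 4 genes. C2 missed the threshold without untreated replicate 3 (0.0515), C1ra without untreated replicate 1 (0.0718) or 3 (0.0694), and Cfb without untreated replicate 1 (0.0582) or 3 (0.112) and without week 1 replicate 4 (0.0547) or 5 (0.054). Of 16 receptors and regulators 2 rose, with a median of 0.03. They were the C1 inhibitor gene Serping1 (1.16, adjusted p = 0.0172), lost without untreated replicate 1 (0.131) or 3 (0.0729) and week 1 replicate 3 (0.0556), and the anaphylatoxin receptor gene C3ar1 (1.19, 0.0369), which passed in neither the fit without untreated replicate 1 (0.065) nor that without untreated replicate 3 (0.221), and was lost without week 1 replicate 1, 2, 3 or 5 (0.0639, 0.0737, 0.0705 and 0.0596). The other probe sets of C3ar1 changed by 0.06 and 0.11, and the mean of its probe sets by 0.45 (0.416). With the beta-actin difference as a covariate the changes were 1.27 for C2, 1.34 for C1ra, 0.88 for Cfb, 1.06 for Serping1 and 1.12 for C3ar1, and none of these 5 passed (adjusted p = 0.086, 0.127, 0.0533, 0.246 and 0.302 in that order).

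Genes that restrain leukocytes were among the rises. Cd274, which encodes the checkpoint ligand PD-L1, measured 7.59, 7.67, 7.57, 7.91 and 7.95 at week 1, against 6.59, 5.51 and 4.81 in untreated kidneys, and rose by 2.10 ± 0.32 (SE, adjusted p = 9.22e-05). Lgals9, the ligand galectin-9, measured 5.34, 5.48, 5.08, 5.15 and 5.43 at week 1, against 3.71, 3.15 and 3.50 in untreated kidneys (1.84 ± 0.27, adjusted p = 3.17e-05). They were the 2 of 15 members of the checkpoint and tryptophan list to rise (13.3%, against 1.4% of all genes), and in both the groups did not overlap. Of 26 cell death genes 1 rose (3.85%, against 1.4% of all genes), Mlkl, the executioner of necroptosis. It measured 6.84, 6.71, 6.62, 7.01 and 6.79 at week 1, against 5.84, 5.49 and 5.58 in untreated kidneys (1.16 ± 0.25, adjusted p = 0.011), and missed the threshold without untreated replicate 3 (0.0614).

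Of 30 macrophage and monocyte markers 4 rose, where 1.4% of all genes did, with a median of 0.20. In 12 of the 30 every week 1 array exceeded every untreated array, an arrangement seen in 4.86% of all genes. The mean over the list lay between 0.43 and 0.53 in week 1 arrays and between −0.05 and 0.07 in untreated arrays. Plac8, a myeloid and epithelial protein that interferon also induces, measured 9.53, 9.73, 9.25, 9.34 and 9.90 at week 1, against 7.88, 7.20 and 7.50 in untreated kidneys (2.03 ± 0.29, adjusted p = 2.63e-05). Ms4a4c and Ms4a6c, which encode membrane-spanning proteins, rose by 2.25 (adjusted p = 0.000652) and 1.73 (0.00769), the second not passing without untreated replicate 2 (1.29, 0.065). The second probe set of Ms4a6c changed by −0.25 (0.666), and the mean of its probe sets by 0.74 (0.155). Adgre1, which encodes the macrophage protein F4/80, measured 3.32, 3.49, 4.08, 3.21 and 3.53 at week 1, against 2.29, 2.37 and 2.07 in untreated kidneys. These are low levels without overlap, and the call (1.28 ± 0.33, adjusted p = 0.0381) was lost without untreated replicate 1 (0.0987) or 3 (0.167). It was also lost without week 1 replicate 2 (0.0636), 3 (0.105) or 5 (0.0693), and with the beta-actin difference as a covariate (1.04, 0.42).

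Lymphoid and granulocyte lists gave fewer calls still. T and NK cell markers gave 0 of 23 passing (median 0.05), B and plasma cell markers 0 of 15 (−0.06) and dendritic cell markers 0 of 12 (−0.14). Cd8a, a coreceptor of cytotoxic T cells, changed by 0.19 (adjusted p = 0.783), and Jchain, which joins IgA and IgM, by −0.68 (0.644). Of 15 neutrophil markers 0 rose and 1 fell, S100a8, a calgranulin. It measured 2.36, 2.13, 2.04, 2.61 and 2.52 at week 1, against 3.17, 2.76 and 3.40 in untreated kidneys (−0.78 ± 0.19, adjusted p = 0.0253). These are low levels without overlap, and the call was lost without untreated replicate 1 (0.0948) or 3 (0.195) and without week 1 replicate 2 (0.0637) or 3 (0.0739). Of 19 adhesion and endothelial genes 2 rose (10.5%, against 1.4% of all genes), both of the Ly6 family of GPI-anchored proteins. Ly6e rose by 2.59 (adjusted p = 5.21e-09) and Ly6c1, which marks monocytes and endothelium, by 1.21 (0.00245). The median change of 32 chemokines was 0.36. Every week 1 array exceeded every untreated array in 8 of them and was below in 2, arrangements seen in 4.86% and 3.5% of all genes. Their list mean lay between 0.29 and 0.36 in week 1 arrays and between −0.09 and 0.18 in untreated arrays. Among the 32 chemokines 1 passed as a rise and 1 as a fall, and 36 cytokines and receptors gave 0 (median 0.04). The rise was that of Ccl3 (1.12 ± 0.29, adjusted p = 0.0426), whose groups overlapped because untreated replicate 1 stood at 3.25, and it was lost without untreated replicate 2 (0.169) or 3 (0.319) and without any of week 1 replicates 2 to 5 (0.107, 0.0931, 0.0578 and 0.062). The fall was that of Ccl27a (−0.49, 0.0359), which was lost without untreated replicate 3 (0.278) or week 1 replicates 2 to 5 (0.0533, 0.0968, 0.0919 and 0.0514). Its 3 other probe sets changed by 0.05, 0.30 and −0.01, and the mean of its probe sets by −0.03 (0.922).

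**Figure D3:**
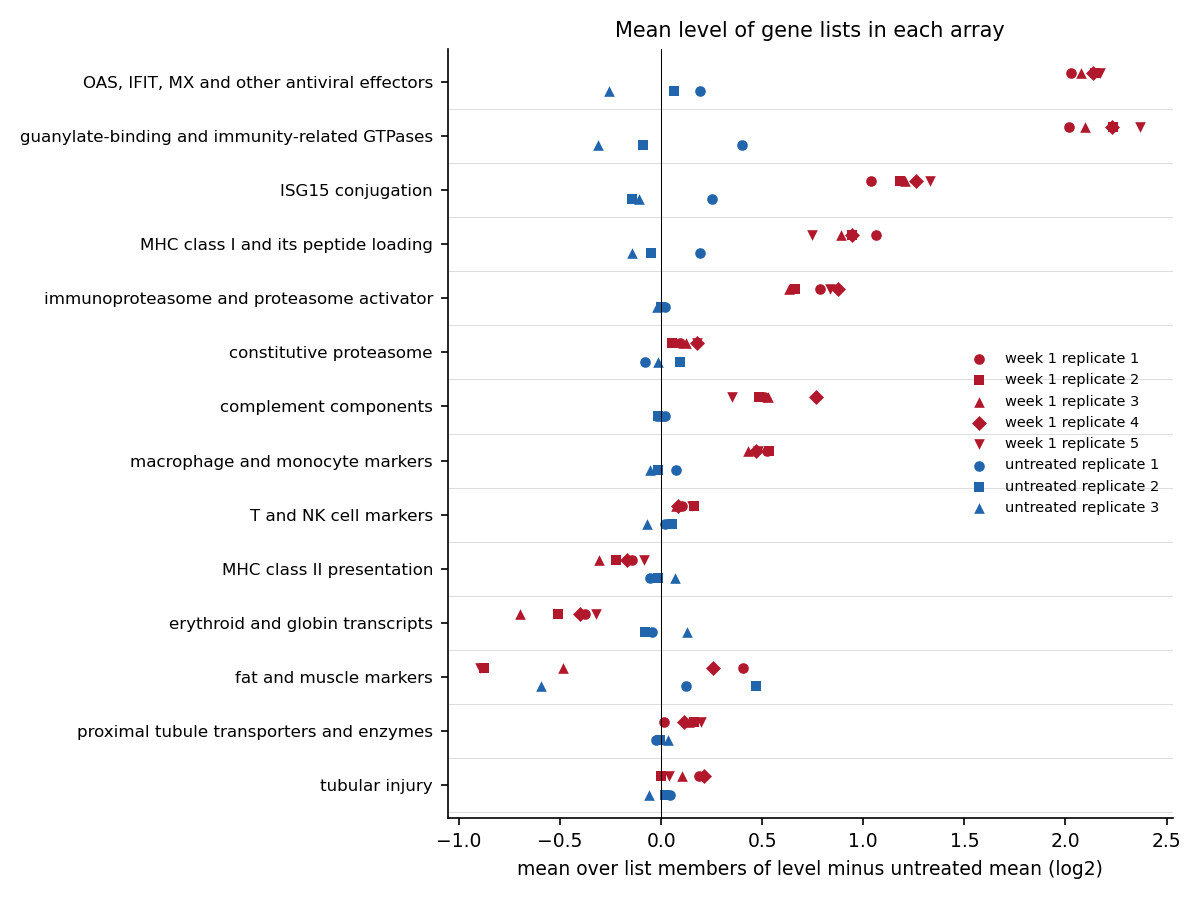
Mean over the members of each of 14 gene lists, per array, of the log2 level minus its untreated mean (x axis), with week 1 arrays in red above untreated arrays in blue and the marker shape giving the replicate. Antiviral effectors lie between 2.03 and 2.17 in week 1 arrays, while fat and muscle markers spread between −0.89 and 0.40 in week 1 arrays and between −0.60 and 0.47 in untreated arrays.

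Levels of fat and muscle markers and of globin transcripts differed between arrays. Fat and muscle markers gave 0 of 15 passing, and their mean was 0.40, −0.88, −0.48, 0.26 and −0.89 in week 1 replicates 1 to 5, against 0.12, 0.47 and −0.60 in the untreated arrays, so these markers varied within both groups. Fabp4, the fatty acid binding protein of adipocytes, ran between 8.71 and 10.85 at week 1 and between 9.20 and 10.72 in untreated kidneys. Erythroid transcripts gave 0 of 9 passing and a mean between −0.70 and −0.32 in week 1 arrays, all below the 3 untreated arrays (−0.08 to 0.13). Hba-a1 (−2.25) and Hbb-b2 (−1.98) carried that mean, while the other 7 members changed by −0.22 to 0.24 and the list median was −0.03. The part of fat and muscle in the results was not tested. With the level of the globin gene Hba-a1 as a covariate, a setting chosen after the data were seen, 116 genes in place of 126 rose by more than 2-fold.

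Of the 126 rises, 92 belonged to a list and 34 to none, 6 of these without an official name. The 25 largest named ones without overlap are plotted per array. Apod, which encodes the lipocalin apolipoprotein D, rose most. It measured 7.30, 6.49, 7.22, 6.96 and 6.99 at week 1, against 3.54, 4.43 and 2.34 in untreated kidneys, so the lowest week 1 array stood above the highest untreated one despite a wide untreated spread. The difference was 3.56 ± 0.37 (SE, adjusted p = 5.22e-08), or 11.8-fold. Ifi202b, a p200 family gene that is highly expressed in the NZB parent and lies in a lupus susceptibility interval, measured 7.30, 7.13, 7.18, 7.47 and 7.45 at week 1, against 5.24, 4.87 and 4.32 in untreated kidneys. Its rise of 2.49 ± 0.33 (adjusted p = 7.88e-06) comes from a probe set that may bind related transcripts. Ms4a4d, of the membrane-spanning 4A family, measured 6.18, 5.94, 6.20, 6.72 and 6.46 at week 1, against 4.23, 4.11 and 3.21 in untreated kidneys (2.45 ± 0.38, adjusted p = 9.15e-05). Its relative Ms4a6b rose by 1.67 (0.00778), a call lost without untreated replicate 3 (1.45, 0.09).

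**Figure D4:**
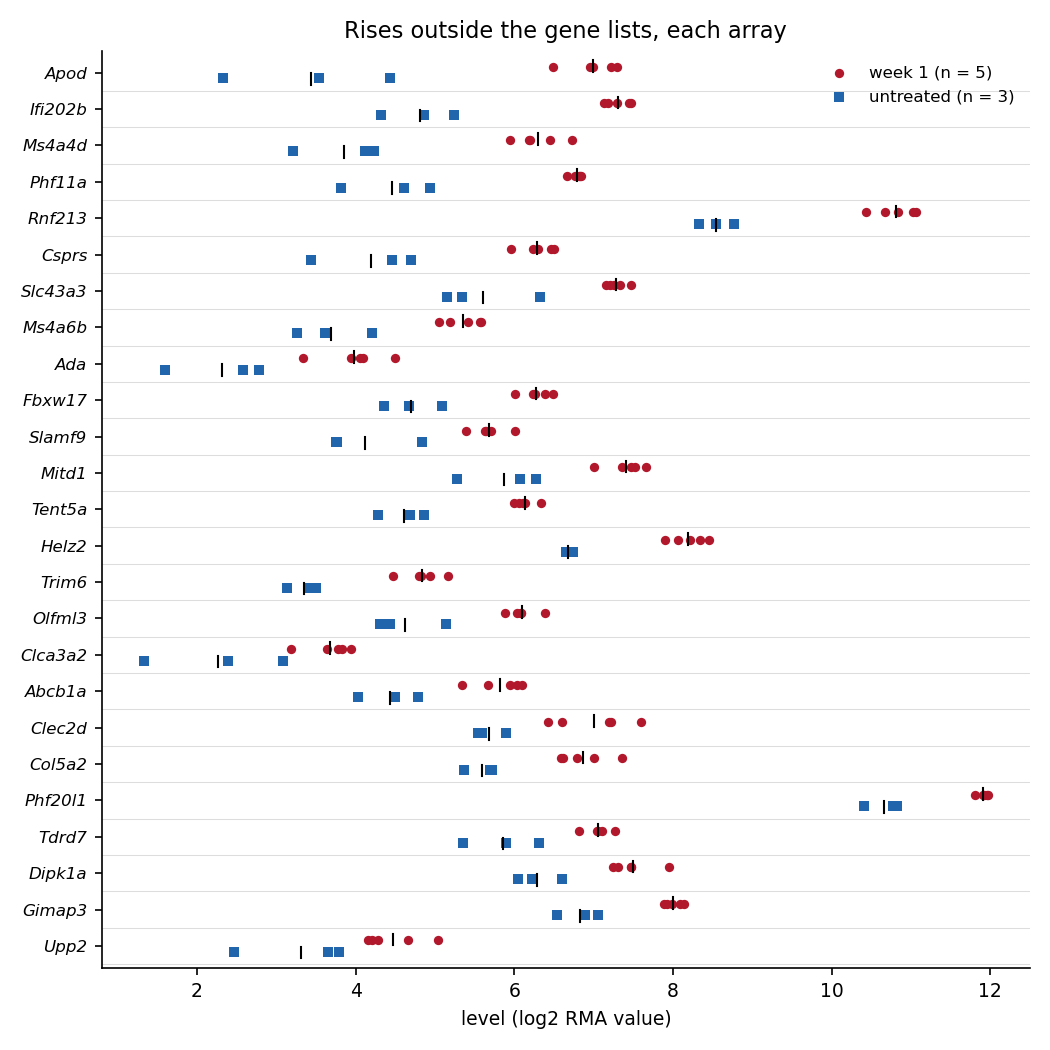
Log2 level (x axis) on every array of the 25 genes with the largest rises that stood in no list (rows), with week 1 arrays as red circles above untreated arrays as blue squares and black bars at the means. Rows were chosen for groups that do not overlap, and the means of Apod lie farthest apart, 6.99 at week 1 against 3.44 in untreated kidneys.

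Phf11a, Rnf213 and Helz2 were also among these genes. Phf11a, a PHD finger gene whose promoter is printed above, measured 6.82, 6.83, 6.66, 6.77 and 6.84 at week 1, against 4.94, 4.61 and 3.82 in untreated kidneys (2.33 ± 0.24, adjusted p = 5.22e-08), and its week 1 arrays were almost equal. Rnf213, a giant E3 ubiquitin ligase known in human moyamoya disease, measured 10.43, 10.83, 10.67, 11.06 and 11.03 at week 1, against 8.77, 8.32 and 8.54 in untreated kidneys (2.26 ± 0.24, adjusted p = 1.04e-07), while its second probe set changed by 0.42 (0.445). Helz2, a helicase that coactivates nuclear receptors, measured 7.89, 8.34, 8.07, 8.46 and 8.22 at week 1, against 6.74, 6.66 and 6.65 in untreated kidneys (1.51 ± 0.23, adjusted p = 6.5e-05). Both genes kept narrow untreated groups. Tent5a, a noncanonical poly(A) polymerase, rose by 1.52 (4.6e-05), Fbxw17, an F-box gene, by 1.57 (5.55e-05), the E3 ligase gene Trim6 by 1.50 (1.11e-05) and the tudor domain gene Tdrd7 by 1.20 (3.17e-05). Phf20l1, a reader of methylated lysine, rose by 1.24 (6.26e-08) on 1 probe set only, with its 4 others between −0.14 and 0.48 and a change of 0.37 (0.119) when its probe sets were averaged. Csprs, a gene of the Sp100 repeat cluster of mouse chromosome 1, likewise rose by 2.09 (1.85e-05) on 1 of 3 probe sets. Such splits were common, since of the 46 genes among the 126 with several probe sets all passed in 14, and in 8 at least 1 changed by less than 0.

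Slc43a3, Abcb1a, Ada, Upp2 and Clca3a2 rose as well, the last 3 with calls that were lost when single arrays were left out. Slc43a3, a transporter of purine nucleobases, measured 7.21, 7.47, 7.15, 7.33 and 7.26 at week 1, against 5.15, 6.32 and 5.34 in untreated kidneys (1.68 ± 0.19, adjusted p = 2.82e-07). Ada, adenosine deaminase, measured 4.06, 3.94, 3.34, 4.50 and 4.09 at week 1, against 2.58, 1.60 and 2.78 in untreated kidneys (1.66 ± 0.37, adjusted p = 0.0129). No overlap was seen in either, but Ada missed the threshold without untreated replicate 2 (1.30, 0.0753). Upp2, a uridine phosphorylase, rose by 1.17 (0.0255) and was lost without untreated replicate 2 (0.75, 0.16) and without week 1 replicate 2 (0.0587) or 3 (0.0797). Abcb1a, the drug efflux pump P-glycoprotein, measured 5.35, 6.04, 5.95, 6.09 and 5.67 at week 1, against 4.04, 4.78 and 4.50 in untreated kidneys (1.38 ± 0.20, adjusted p = 3.17e-05). Clca3a2, a chloride channel accessory gene whose promoter is printed above, rose by 1.40 with the largest adjusted p of the 25 genes (0.0458). It lost the call without untreated replicate 1 (0.94, 0.333) or 2 (0.0554) and without week 1 replicate 1, 3, 4 or 5 (0.0772, 0.0791, 0.0842 and 0.0865).

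The remaining genes outside the lists had varied roles. Mitd1, which acts in the last step of cytokinesis, measured 7.01, 7.36, 7.53, 7.66 and 7.47 at week 1, against 6.07, 5.28 and 6.27 in untreated kidneys (1.53 ± 0.22, adjusted p = 2.4e-05). Col5a2, a chain of collagen V, measured 6.62, 7.00, 7.36, 6.59 and 6.79 at week 1, against 5.72, 5.70 and 5.37 in untreated kidneys (1.28 ± 0.22, adjusted p = 0.000593), and its second probe set rose by 1.68 (0.000211). In each the lowest week 1 array lay above the highest untreated array. Olfml3, a secreted matrix scaffold protein, rose by 1.47 (3.17e-05), and Clec2d, a lectin recognised by an inhibitory NK receptor, by 1.33 (9.39e-05). Slamf9, of the SLAM receptor family, rose by 1.56 (0.00418) and passed neither without untreated replicate 1 (0.0505) nor without untreated replicate 3 (0.0614). Gimap3, a GTPase of lymphocytes, rose by 1.18 (0.0027) and was lost without untreated replicate 3 (0.0508). Dipk1a, a kinase-like protein of the endoplasmic reticulum, rose by 1.20 (3.97e-05).

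Falls were small and mostly on dim probe sets. The largest was −0.94, and 33 of the 54 had a mean level under 5, as had 8332 of all 17097 genes and 33 of the 239 rises. In 47 of the 54 every week 1 array lay below every untreated array, as in 598 of all genes (3.5%). The 54 were selected on the same arrays, which favours this arrangement. GAAANNGAAA stood in 1 of 48 falling genes with a promoter window (2.08%), near the 3.59% of all measured genes. Wdfy4, known from cross-presentation by dendritic cells, measured 4.69, 4.47, 4.42, 4.73 and 4.72 at week 1, against 5.48, 5.21 and 5.73 in untreated kidneys (−0.87 ± 0.16, adjusted p = 0.00175). Dlc1, a RhoGAP that restrains actin contractility, measured 6.28, 5.83, 5.89, 5.73 and 6.54 at week 1, against 7.13, 6.66 and 6.70 in untreated kidneys (−0.77 ± 0.17, adjusted p = 0.0142), with the highest week 1 array just under the lowest untreated one. Without untreated replicate 1 the fall of Dlc1 was −0.62 (0.134). Shroom1, an actin-binding gene, fell by 0.76 (0.00231) and Tle6, of the Groucho family, fell by 0.73 (0.0105), both lost without untreated replicate 3 (0.0786 and 0.126). Wdfy4 passed with every single array left out, but not with the beta-actin difference (−0.74, adjusted p = 0.145) or the Hba-a1 level (−0.65, 0.112) as a covariate, the second chosen after the data were seen, and none of the 11 named falls passed under every alternative.

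No gene of the nephron lists passed the test at this time. Proximal tubule transporters and enzymes gave 0 of 32 passing (median 0.13), loop and distal tubule genes 0 of 22 (−0.03), collecting duct genes 0 of 19 (0.06) and glomerular and vessel genes 0 of 18 (−0.01). In 6 of the 32 proximal tubule genes every week 1 array exceeded every untreated array, as in 4.86% of all genes. In 1 of the 32 the reverse held, as in 3.5% of all genes. Injury markers gave 0 of 23 (0.04) and matrix and myofibroblast genes 0 of 32 (0.04). The matrix list did not hold Col5a2 and Olfml3, which rose and are described with the genes outside the lists. Havcr1, the tubular injury molecule KIM-1, measured 7.14, 7.21, 7.35, 6.95 and 7.46 at week 1, against 7.33, 6.64 and 6.69 in untreated kidneys, with overlapping groups (0.34 ± 0.45, adjusted p = 0.802). Lcn2, which encodes the injury marker NGAL, measured 3.43, 3.34, 3.56, 3.42 and 3.56 at week 1, against 4.37, 3.78 and 3.75 in untreated kidneys. Here every week 1 array was lower, with a change of −0.50 ± 0.83 that did not pass (adjusted p = 0.845). That SE rests on the spread in all 7 groups, later weeks included, and is wider than the range of either group. The test therefore had little power for a change of this size. The lists of oxidative phosphorylation (0 of 35), fatty acid oxidation (0 of 24), antioxidant enzymes (0 of 23), the unfolded protein response (0 of 23), acute phase and iron genes (0 of 23), the circadian clock (0 of 20), p53 targets (0 of 16) and immediate early genes (0 of 25) had no member past the threshold.

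In the lists of glucocorticoid targets, of the cell cycle and of cholesterol and oxysterols, 4 genes did pass. They made up 7.14%, 5.88% and 4.55% of these lists in that order, where 1.4% of all genes rose. Zbtb16, a transcription factor that glucocorticoids induce and that also takes part in interferon responses, measured 4.94, 4.53, 5.37, 5.53 and 4.69 at week 1, against 3.45, 3.06 and 3.07 in untreated kidneys (1.82 ± 0.43, adjusted p = 0.0201). It was 1 of 14 glucocorticoid targets to rise, and its call was lost without untreated replicate 3 (0.0963) or week 1 replicate 3 (0.0534), while its second probe set did not pass (0.994). Mcm6, a subunit of the replicative helicase, measured 4.41, 4.76, 5.29, 4.76 and 5.18 at week 1, against 3.61, 3.57 and 3.42 in untreated kidneys (1.35 ± 0.24, adjusted p = 0.00112). Mcm6 and Ccnd1 (0.69, adjusted p = 0.0349), which encodes cyclin D1, were the 2 of 34 cell cycle genes to rise, and all 3 probe sets of Ccnd1 passed. The call of Ccnd1 was lost without untreated replicate 2 (0.176) or 3 (0.0665) and without week 1 replicate 2, 4 or 5 (0.0543, 0.0884 and 0.0678). Apol9a, an apolipoprotein L gene that interferon is known to induce, was the 1 of 22 members of the cholesterol and oxysterol list that rose. It measured 7.12, 7.46, 7.23, 7.48 and 7.41 at week 1, against 5.48, 4.93 and 4.18 in untreated kidneys (2.48 ± 0.55, adjusted p = 0.0135), and was lost without untreated replicate 3 (2.13, 0.122).

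What set week 1 apart from the weeks that followed was asked without the untreated arrays, as week 1 minus the mean of weeks 2 and 3. Only 15 of 17097 genes were higher (0.0877%) and 22 lower (0.129%) at an adjusted p under 0.05. Apod was the 1 gene of the 126 rises that passed here. It averaged 6.99 ± 0.31 at week 1 (SD, n = 5) and 5.33 ± 0.48 over weeks 2 and 3 (n = 10, range 4.70 to 6.11), a difference of 1.66 ± 0.28 (SE, adjusted p = 0.00358) without overlap. The week 1 level was the highest of its first 3 weeks, with means of 6.99, 5.40 and 5.26. All 40 antiviral effectors lay above their mean of weeks 2 and 3, by a median of 0.34, though 0 passed. Of all 17097 genes 8462 did so. The list mean of these effectors was 2.11, 1.66 and 1.80 at weeks 1, 2 and 3, while that of the GTPases was 2.19, 1.76 and 2.27.

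Manf, Nr4a3 and Per2 were also higher at week 1 than in weeks 2 and 3, while their week 1 arrays overlapped with the untreated ones. Manf, a secreted stress protein of the endoplasmic reticulum, measured 7.57, 7.30, 7.40, 7.33 and 7.74 at week 1, against means of 6.42 at week 2 and 6.48 at week 3 (1.02 ± 0.17, SE, adjusted p = 0.00453), and averaged 7.47 at week 1 and 7.31 in untreated kidneys. Nr4a3, an orphan nuclear receptor induced early after stimulation, averaged 7.51 ± 0.72 at week 1 and 5.83 ± 0.84 over weeks 2 and 3 (1.68 ± 0.24, adjusted p = 0.000677). Its mean was 7.73 in untreated kidneys, 6.45 at week 2 and 5.21 at week 3, and week 2 ran up to 7.82, into the range of week 1. The other probe sets of Nr4a3, with low mean levels of 2.74 and 1.83, differed by −0.013 and −0.003 (adjusted p = 0.99 and 0.998). Per2, a clock repressor, averaged 5.20 at week 1 and 4.20 over weeks 2 and 3 (1.00 ± 0.19, adjusted p = 0.0136), with 5.12 in untreated kidneys, and was lost without week 1 replicate 4 (0.0806) or 5 (0.0534). Its second probe set, at a mean level of 2.55, differed by 0.22 (0.749). Smaller differences, which were looked at after the values were seen, passed for Hspa5, the chaperone BiP (0.84, adjusted p = 0.001), whose week 1 arrays (9.77 to 10.34) lay above its untreated arrays (9.38 to 9.67), and for the cytosolic chaperone genes Dnaja1 (0.57), Dnajb1 (0.45) and Hsph1 (0.44).

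**Figure D5:**
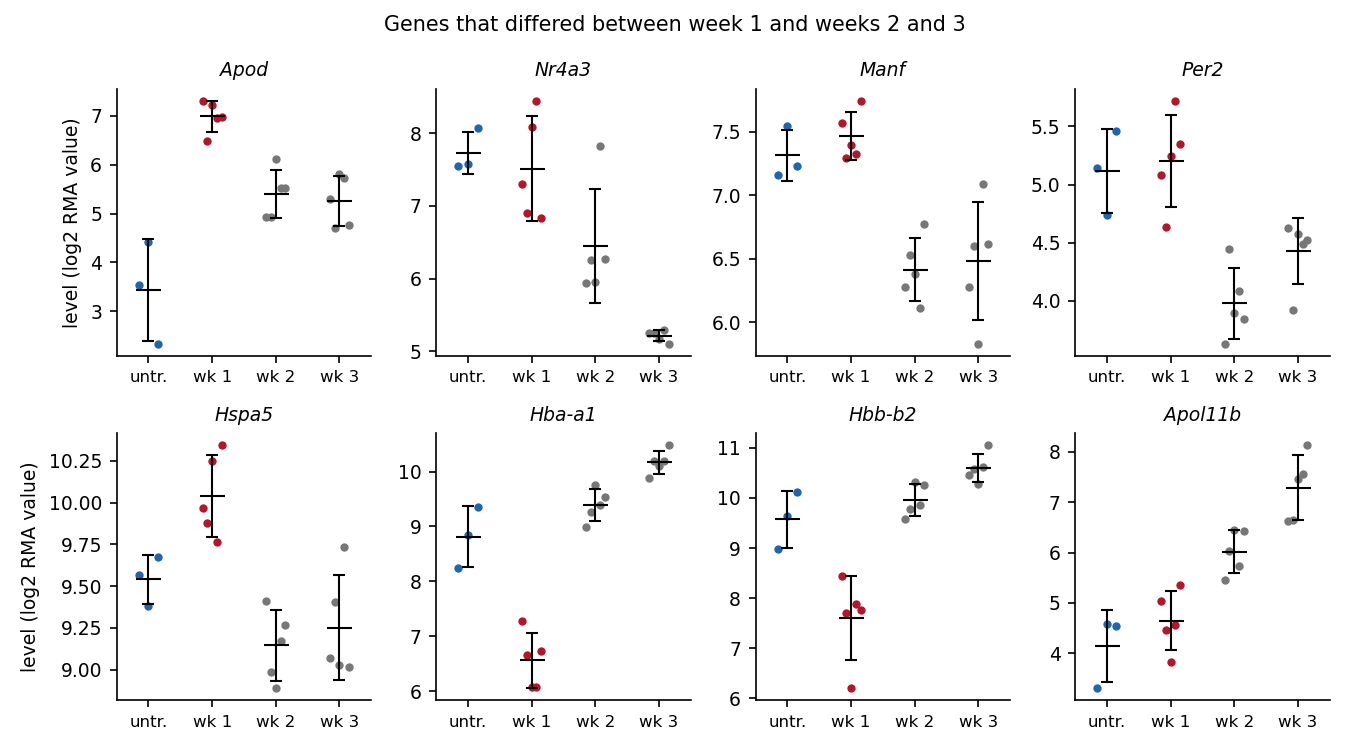
Log2 level (y axis) of 8 genes on every array of the untreated group and of weeks 1, 2 and 3, with bars for mean ± SD (n = 3 untreated, 5 in each week). Apod is highest at week 1, Manf and Per2 overlap with the untreated arrays at week 1 and are lower in weeks 2 and 3, and the globin genes are lowest at week 1.

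Lower at week 1 were globin transcripts. Hba-a1, an alpha globin gene, measured 7.27, 6.65, 6.07, 6.07 and 6.73 at week 1 and averaged 9.38 at week 2 and 10.17 at week 3, a difference of −3.22 ± 0.47 (SE, adjusted p = 0.000721). No array of weeks 2 and 3 was under 8.98. Untreated arrays measured 8.24, 8.84 and 9.35, above all 5 week 1 arrays, but the change of −2.25 ± 0.62 did not pass (adjusted p = 0.0585). Hbb-b2, a beta globin gene, averaged 7.60 ± 0.83 at week 1 and 10.28 ± 0.44 over weeks 2 and 3 (−2.68 ± 0.54, adjusted p = 0.0218), with 9.58 ± 0.57 in untreated kidneys. Its difference was lost without week 1 replicate 2, 3, 4 or 5 (0.0542, 0.12, 0.0511 and 0.0574). Globin RNA in kidney comes from blood, and blood left in the tissue and globin RNA per blood cell cannot be told apart here. Apol11b, an apolipoprotein L gene, averaged 4.65 ± 0.59 at week 1 and 6.65 ± 0.84 over weeks 2 and 3 (−2.00 ± 0.40, adjusted p = 0.0218), and 4.14 ± 0.72 in untreated kidneys. It was lost without week 1 replicate 2 (0.0628), 3 (0.115) or 4 (0.0693).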

How the data were processed

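Total RNA from snap-frozen kidneys was hybridised to Affymetrix HT MG-430 PM arrays after NuGEN Ovation biotin labelling. The authors deposited 1 log2 table of RMA-normalised values, made per the submitters' processing notes with RMA and Partek (versions not given in the sources used here). Values ran between 0.585 and 13.9, with array medians of 3.97 to 4.09. Of 45141 probe sets, 104 controls were left out. Of the 45037 tested, 28898 had 1 gene symbol, 551 several and 15588 none, which left 17097 genes, each read from its brightest probe set. Arrays hold no counts, so precision is limited by their number.

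Group means of all 33 arrays were fitted with limma 3.58.1 in R 4.3.3 (7 groups, 26 residual degrees of freedom), with Benjamini-Hochberg adjustment over all probe sets. A gene rose or fell where the adjusted p was under 0.05, and counts over 2-fold are given separately. Scripts were tested on simulated data. Because the titles only number the arrays of a group, p-values cover the spread between these samples.

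Members and the 46 gene lists (940 of 1096 listed genes measured) were chosen with earlier results of these data known. Named genes were, by rule, the 20 largest rises without overlap, the 25 largest in no list, the 10 largest falls, up to 6 passing members of each list or its 2 brightest, the largest differences from weeks 2 and 3, and defining genes of the pathway. Genes with only an identifier were counted and not named. Alternatives were the 8 arrays alone, array weights, a trended robust prior, a filter on dim probe sets, repeated quantile normalisation, the replicate number as a block, the beta-actin difference or the Hba-a1 level as a covariate, averaging the probe sets of each gene, and each array left out. Promoters came from RefSeq (GRCm38.p6).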

Additional observations from a re-analysis of the deposited data

Results flagged for a closer look

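On single genes, 7 of the 168 named genes had 1 week 1 array apart from the other 4 by Dixon's criterion for 5 values, which chance meets in about 1 of 20 groups. Week 1 replicate 4 stood apart for C2 at 7.98 (others 7.03 to 7.30), for Psme2 at 7.20 (6.84 to 6.94), for the water channel gene Aqp4 at 9.40 (9.81 to 9.91) and for Acadm, of fatty acid oxidation, at 10.65 (10.73 to 10.75). Replicate 5 did so for Ly6c1 at 8.54 (8.13 to 8.23) and for Ms4a4c at 5.83 (6.15 to 6.24), and replicate 3 for Ifna1 at 4.82 (4.68 to 4.72).

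Between week 1 and the mean of weeks 2 and 3 the difference passed for 7 named genes, with Apod at 1.66, Nr4a3 at 1.68, Manf at 1.02, Per2 at 1.00, Hba-a1 at −3.22, Hbb-b2 at −2.68 and Apol11b at −2.00 (limma, adjusted p = 0.00358, 0.000677, 0.00453, 0.0136, 0.000721, 0.0218 and 0.0218 in that order). Apart from Apod, none of the 7 passed against untreated kidneys.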

How the results depend on the processing

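Probe sets that rose by more than 2-fold numbered 170 to 237 over the alternatives, against 204, and genes 109 to 136, against 126. The 5 probe sets that fell by more than 2-fold became 10 with only the 8 arrays, 3 with array weights and 1 to 40 with an array left out. Without a fold threshold, the 239 rising genes became 149 with array weights, 137 with the beta-actin covariate and 144 with the Hba-a1 covariate, which was chosen after seeing the data. The 54 falling genes became 7 with only the 8 arrays, 11 with array weights, 6 and 11 with those covariates, 84 with the mean of probe sets and 21 to 191 with an array left out. Between week 1 and weeks 2 and 3, 6 probe sets were higher by more than 2-fold. They became 10 with only the arrays compared and 0 with the Hba-a1 covariate. The 7 that were lower by more than 2-fold became 4 with the trended prior, 1 with the Hba-a1 covariate and 4 to 6 with an array left out. Under that covariate Hbb-b2 and Apol11b turned to 0.84 and 0.46 (adjusted p = 0.505 and 0.82), while Apod, Nr4a3, Manf and Per2 missed the threshold with differences of 2.04, 1.87, 1.15 and 0.91 (0.103, 0.0824, 0.161 and 0.44), of which only that of Per2 was smaller than without it. The cause of these shifts was not tested. Of 95 named rises over 2-fold 70 kept their call throughout, as did 0 of 5 smaller rises and 0 of 11 falls. Same-numbered arrays did not deviate together (r = −0.008, −0.023 and −0.050). The replicate block gave 200 rising and 6 falling probe sets over 2-fold, and 206 rising genes without a fold threshold, against 239. With 3 untreated arrays, whose median SD over the 126 rises was 0.411, small changes may not be detectable. The same holds for genes that spread widely at later weeks, since the variance was shared over all 7 groups.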
